A study of Mus musculus with 10 samples.

Results

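Imprinted growth genes are a set of genes that are read from only the maternal or only the paternal chromosome and that act on the growth of the embryo. The set given here listed 10 of them, Zim1, Peg3, Dlk1, Meg3, H19, Cdkn1c, Grb10, Plagl1, Mest and Ndn, and asked whether Zim1 moved alone or with the others when hedgehog signalling was changed in cultured mouse Wolffian ducts. A gene was taken as measured when a probe set on the array carried its symbol in the platform's annotation. This held for 8 of the 10 genes, with 1 probe set each, out of 19505 genes named by 19572 of the 22206 probe sets; no probe set carried the symbols Meg3 or H19 in the annotation table used here, and these long noncoding RNAs were not analysed here. The set was built around Zim1, which was chosen by its measured SAG minus vehicle difference on these same arrays, so its difference between SAG and vehicle, and between SAG and cyclopamine, is given as a description with no test. The other genes were listed as imprinted genes of embryonic growth, with earlier results of these data known.

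The Wolffian duct is the embryonic tube that gives rise to the epididymis and vas deferens. Ducts from embryos of 16.5 days post-coitum were cultured for 72 h at an air-liquid interface in 1 of 3 conditions: with 0.5 µM SAG, an agonist of the hedgehog transducer Smoothened (4 arrays), with 25 µM cyclopamine, a plant alkaloid that inhibits Smoothened (3 arrays), or in culture medium, called vehicle (3 arrays). The design text calls the arrays biological replicates. The sample titles use the word pronephros, while the protocols describe Wolffian ducts. Strain, sex, the number of ducts behind an array and whether vehicle cultures received the compounds' solvent are not stated in the labels.

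In mammals, the choice of the parental copy that is read is set by DNA methylation laid down at control regions in the egg or sperm, and neighbouring imprinted genes often share such a region. Most paternally read genes of growth are known to favour it and most maternally read ones to restrain it. Many of these genes are strongly active in mesoderm-derived tissues before birth and are shut down after it. Plagl1 encodes a zinc finger factor that is known in the mouse to act on several other imprinted genes.

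Zim1 and Peg3 lie next to each other on chromosome 7 and Usp29, the next protein-coding gene, follows Peg3 in the RefSeq gene order, whereas Plagl1 lies on chromosome 10. The results below turn on these genes, so the promoter windows of the 3 members among them are printed first, from RefSeq on build GRCm38.p6, each 300 bases long and running 5′ to 3′ on the gene's own strand from 250 bases before to 50 bases after its start. Capitals mark CG dinucleotides, the bases at which DNA methylation is laid down. The window of Zim1 spans chr7:6696383-6696682 on the minus strand, that of Peg3 chr7:6730370-6730669 on the minus strand and that of Plagl1 chr10:13090582-13090881 on the plus strand.
Zim1: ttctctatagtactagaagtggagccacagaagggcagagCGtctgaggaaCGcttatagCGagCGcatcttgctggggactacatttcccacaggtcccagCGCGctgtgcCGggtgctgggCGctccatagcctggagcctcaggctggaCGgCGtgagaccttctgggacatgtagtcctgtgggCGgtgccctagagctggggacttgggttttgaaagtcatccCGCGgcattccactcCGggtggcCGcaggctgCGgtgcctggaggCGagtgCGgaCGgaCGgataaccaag
Peg3: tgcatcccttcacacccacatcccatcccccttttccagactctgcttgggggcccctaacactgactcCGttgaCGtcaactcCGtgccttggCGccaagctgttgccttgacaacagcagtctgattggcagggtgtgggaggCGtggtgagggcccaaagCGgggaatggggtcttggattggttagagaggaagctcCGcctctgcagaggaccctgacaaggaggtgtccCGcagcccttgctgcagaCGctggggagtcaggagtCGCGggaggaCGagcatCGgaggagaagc
Plagl1: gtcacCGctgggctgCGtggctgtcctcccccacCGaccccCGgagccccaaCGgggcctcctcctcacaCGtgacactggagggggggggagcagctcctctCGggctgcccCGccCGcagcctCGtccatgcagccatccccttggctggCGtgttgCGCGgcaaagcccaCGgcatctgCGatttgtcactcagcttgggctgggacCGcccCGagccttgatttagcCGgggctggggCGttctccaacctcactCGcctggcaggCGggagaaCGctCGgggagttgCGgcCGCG

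The window of Zim1 held 20 CG dinucleotides, that of Peg3 13 and that of Plagl1 26, against a median of 7 over 32851 windows of 27025 genes. Of all windows, 75.2% held as many as Zim1 or fewer, 63.7% as many as Peg3 or fewer and 84.5% as many as Plagl1 or fewer. The windows of Peg3 and Usp29 point away from each other and share 263 bases, which makes this a promoter with a start in each direction. Motifs were searched on both strands and were picked with the sequences in view. The Gli consensus letters GACCACCCA occurred in 0.253% of all windows and in none of those of the 7 measured members that have one (Cdkn1c has none in the table). The palindrome GGGGCCCC, known as the binding sequence of the Plagl1 protein, occurred in 1.08% of windows, those of Peg3 and Usp29 among them, and starts at base 50 of the window of Peg3. The cyclic AMP response element TGACGTCA occurred in 1.79% of windows, again with those of Peg3 and Usp29 among them, and starts at base 73 of the window of Peg3. A match is a run of letters and not a bound site, and no binding or methylation was measured.

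Values are the deposited log2 signals of the array, on which a difference of 1 is a doubling. Across the 10 arrays the median signal lay between 7.55 and 7.70 and the quartiles were nearly equal. The hedgehog targets Gli1, Ptch1 and Hhip checked the treatments: with SAG against vehicle they rose by 1.51, 1.56 and 4.55 log2 units, and with cyclopamine against vehicle they fell by 6.93, 4.12 and 5.95 log2 units (limma, adjusted p 0.037 or less for each). The rise of Gli1 did not pass when any 1 of the SAG arrays, cyclopamine replicate 3 or vehicle replicate 2 or 3 was left out (adjusted p up to 0.20), and with the replicate number as a block neither Gli1 (adjusted p = 0.18) nor Ptch1 (adjusted p = 0.078) passed with SAG. Cyclopamine replicate 2 stood apart from the other cyclopamine arrays on the second principal component, at -51.7, against 13.6 and 13.0. All tests of members below come from 1 limma fit across all probe sets, with the adjusted p taken over all of them and a threshold of 0.05. The 3 comparisons share arrays, so their results for a gene are not independent of each other. Counts at an unadjusted p under 0.05, and of genes whose arrays do not overlap between groups, were not taken over all probe sets. They describe the genes named.

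With SAG against vehicle, Peg3 and Plagl1 rose beside Zim1, the remaining 5 tested members did not pass, and no member fell. Zim1 was 8.73-fold higher with SAG, Plagl1 3.29-fold and Peg3 2.87-fold. Of the 7 members tested, 2 rose and 0 fell, where 0.45% of all probe sets rose and 0.279% fell, all by adjusted p. At an unadjusted p under 0.05 limma gave 4 members above 0 and 0 below. The share of all probe sets at that looser threshold was not counted. Including Zim1, all 8 members lay above 0 in this comparison, with a median difference of 0.33 log2 units against 0.01 over all probe sets. The genes were chosen with results of these arrays known, so these counts describe the set.

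Zim1 encodes a zinc finger protein and is read from the maternal chromosome. Its log2 signal was 13.91, 14.45, 15.12 and 14.45 on the SAG arrays, 10.44, 12.33 and 10.06 on the cyclopamine arrays, and 11.98, 10.41 and 11.68 on the vehicle arrays. Every SAG array lay above every other array, by at least 1.58 log2 units over cyclopamine and 1.93 over vehicle, while the cyclopamine and vehicle arrays overlapped. The means were 14.48 ± 0.50 with SAG (SD, n = 4), 10.94 ± 1.21 with cyclopamine (n = 3) and 11.36 ± 0.84 with vehicle (n = 3). SAG minus vehicle was 3.13 ± 0.54 (SE) and SAG minus cyclopamine 3.54 ± 0.54, both given without a test. Leaving out any 1 array kept the difference between SAG and vehicle between 2.65 and 3.44. The comparison of cyclopamine with vehicle, which does not use the SAG difference that picked the gene but shares its vehicle arrays, gave -0.41 ± 0.57 for Zim1 and did not pass (limma, adjusted p = 0.76). Its interval, from -1.68 to 0.85, spans changes in both directions, and the difference ran between -1.10 without cyclopamine replicate 2 and 0.03 without cyclopamine replicate 3.

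Peg3 encodes a large zinc finger protein read from the paternal chromosome, known in the mouse for a role in fetal growth. Its signal was 14.62, 15.15, 15.35 and 15.04 on the SAG arrays, 13.23, 14.08 and 12.78 on the cyclopamine arrays, and 13.61, 13.27 and 13.68 on the vehicle arrays. The SAG arrays all lay above the rest, and the cyclopamine arrays lay on both sides of the vehicle arrays. SAG minus vehicle was 1.52 ± 0.28 for Peg3 (limma, adjusted p = 0.038) and SAG minus cyclopamine 1.68 ± 0.28 (adjusted p = 0.0030). Against vehicle, the call for Peg3 ended when SAG replicate 2, 3 or 4, cyclopamine replicate 1 or vehicle replicate 1, 2 or 3 was left out, with an adjusted p of up to 0.21, while the difference stayed between 1.40 and 1.66. With cyclopamine against vehicle the difference was -0.16 ± 0.30 (adjusted p = 0.84).

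Plagl1, also called Zac1, encodes a zinc finger factor that is read from the paternal chromosome. The SAG arrays gave 14.65, 14.50, 14.77 and 14.42, the cyclopamine arrays 12.53, 13.01 and 12.77, and the vehicle arrays 12.97, 12.44 and 13.19. The lowest SAG array lay 1.23 log2 units above the highest vehicle array and 1.41 above the highest cyclopamine array, and the cyclopamine and vehicle arrays overlapped. The rise with SAG was 1.72 ± 0.19 against vehicle (limma, adjusted p = 0.0037) and 1.82 ± 0.19 against cyclopamine (adjusted p = 0.00019). Of the members tested against vehicle, Plagl1 alone kept its call whichever array was left out, with an adjusted p of at most 0.019. Cyclopamine minus vehicle was -0.10 ± 0.20 (adjusted p = 0.85), with an interval from -0.55 to 0.35, so a fall of the size of the SAG rise lies outside it.

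**Figure D1:**
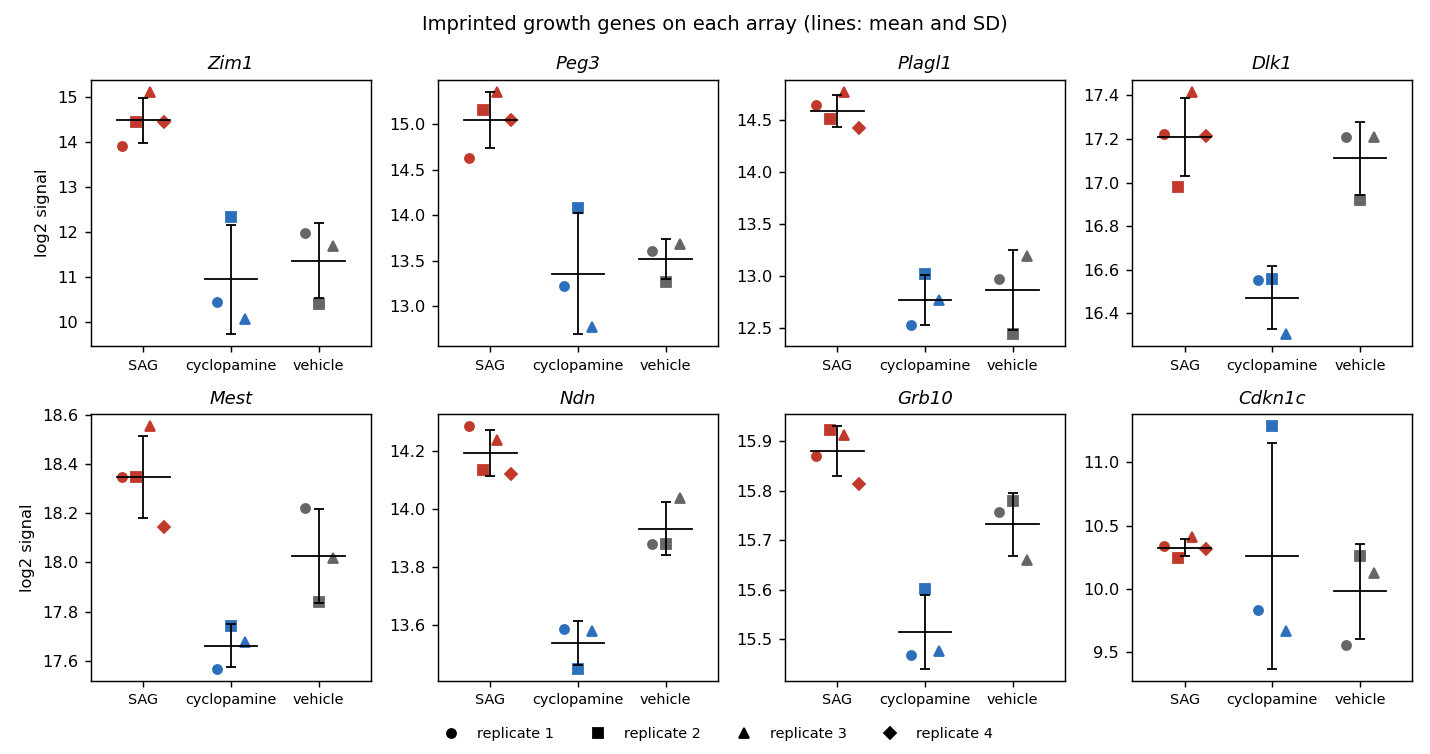
Log2 signal (vertical axis, a separate range in each panel) of the 8 measured imprinted growth genes on every array, grouped as SAG, cyclopamine and vehicle; symbols mark the replicate number, the long line is the group mean and the bars are the SD. The 4 SAG arrays sit above all others for Zim1, Peg3 and Plagl1, the 3 cyclopamine arrays sit below all others for Dlk1, Mest, Ndn and Grb10, and the groups overlap for Cdkn1c. The share of all probe sets that separate in these ways was not counted.

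For Dlk1, Mest, Ndn and Grb10 all cyclopamine arrays lay below all vehicle arrays, and of these genes Dlk1 passed the test. The share of all probe sets that separate in this way was not counted. Dlk1 encodes a membrane protein related to Notch ligands, is read from the paternal chromosome and is known to hold back differentiation. Its signal was 17.22, 16.98, 17.42 and 17.21 with SAG, 16.55, 16.56 and 16.30 with cyclopamine, and 17.21, 16.92 and 17.21 with vehicle. The SAG and vehicle arrays overlapped, and all cyclopamine arrays lay below both. Dlk1 fell with cyclopamine against vehicle, by 0.64 ± 0.15 log2 units (limma, adjusted p = 0.040), and was the 1 member of 8 that did; 2.95% of all probe sets fell and 2.17% rose. No member rose. At an unadjusted p under 0.05, where the share of all probe sets was not counted, limma gave 3 members below 0 and 0 above. The median over the 8 members was -0.29, against 0.02 over all probe sets.

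The call for Dlk1 with cyclopamine ended when SAG replicate 1 or 4, cyclopamine replicate 1 or 3, or vehicle replicate 1, 2 or 3 was left out (adjusted p up to 0.13), with a difference between -0.74 and -0.56. With SAG against vehicle Dlk1 moved by 0.10 ± 0.14 (limma, adjusted p = 0.86), and its interval, from -0.22 to 0.41, leaves out a rise of the size seen for Peg3 or Plagl1. Without vehicle replicate 2 that difference was -0.0012. Dlk1 signals reached 17.42 with SAG, where the range of all values on the arrays reached 18.75. Whether the top of the range limits a rise was not tested.

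Mest encodes an enzyme of the alpha/beta hydrolase family, is read from the paternal chromosome and marks embryonic mesoderm. It gave 18.35, 18.35, 18.55 and 18.15 with SAG, 17.57, 17.74 and 17.68 with cyclopamine, and 18.22, 17.84 and 18.02 with vehicle. The SAG and vehicle arrays overlapped, and the cyclopamine arrays lay below the lowest vehicle array by at least 0.10 log2 units. Against vehicle the differences were 0.32 ± 0.14 with SAG (limma, adjusted p = 0.44) and -0.37 ± 0.15 with cyclopamine (adjusted p = 0.22). Mest signals lay near the top of the array's range, which reached 18.75.

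Ndn encodes necdin, a growth-suppressing protein of the MAGE family that is read from the paternal chromosome. The SAG arrays gave 14.29, 14.13, 14.24 and 14.12, the cyclopamine arrays 13.58, 13.45 and 13.58, and the vehicle arrays 13.88, 13.88 and 14.04. The 3 groups did not overlap, with SAG highest and cyclopamine lowest. Even so the differences from vehicle did not pass: 0.26 ± 0.11 with SAG (limma, adjusted p = 0.43) and -0.39 ± 0.12 with cyclopamine (adjusted p = 0.095). The second of these passed with a prior variance that depends on intensity (adjusted p = 0.037).

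Grb10 encodes an adaptor that restrains insulin and growth factor receptors and is read from the maternal chromosome in most tissues. Its signal was 15.87, 15.92, 15.91 and 15.81 with SAG, 15.47, 15.60 and 15.48 with cyclopamine, and 15.76, 15.78 and 15.66 with vehicle. These groups did not overlap either, but SAG and vehicle were 0.03 log2 units apart at the nearest arrays. No comparison passed for Grb10, with 0.15 ± 0.11 for SAG minus vehicle (limma, adjusted p = 0.68), -0.22 ± 0.11 for cyclopamine minus vehicle (adjusted p = 0.35) and 0.36 ± 0.11 for SAG minus cyclopamine (adjusted p = 0.053).

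Cdkn1c encodes the cyclin-dependent kinase inhibitor p57, is read from the maternal chromosome and restrains growth. It gave 10.34, 10.24, 10.41 and 10.32 on the SAG arrays, 9.83, 11.28 and 9.67 on the cyclopamine arrays, and 9.55, 10.26 and 10.13 on the vehicle arrays. All 3 groups overlapped, and cyclopamine replicate 2 was the highest of the 10 arrays. SAG minus vehicle was 0.35 ± 0.34 for Cdkn1c (limma, adjusted p = 0.77), and cyclopamine minus vehicle was 0.28 ± 0.36 (adjusted p = 0.74), which became -0.23 without cyclopamine replicate 2.

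Set against cyclopamine, SAG gave higher signals for 5 of the 7 members tested: Plagl1, Peg3, Dlk1, Mest and Ndn rose and none fell, where 5.42% of all probe sets rose and 5.92% fell. At an unadjusted p under 0.05, where the share of all probe sets was not counted, limma gave 6 members above 0 and 0 below. For Dlk1 the difference was 0.74 ± 0.14 (adjusted p = 0.0072), for Mest 0.69 ± 0.14 (adjusted p = 0.0089) and for Ndn 0.66 ± 0.11 (adjusted p = 0.0035). Those for Plagl1 and Peg3, given above, were larger, at 1.82 and 1.68. Grb10 and Cdkn1c did not pass, with Cdkn1c at 0.07 ± 0.34 (adjusted p = 0.94). The median over the 8 members was 0.71 and that over all probe sets 0.01. These 5 calls were kept under all 17 other settings tried.

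**Figure D2:**
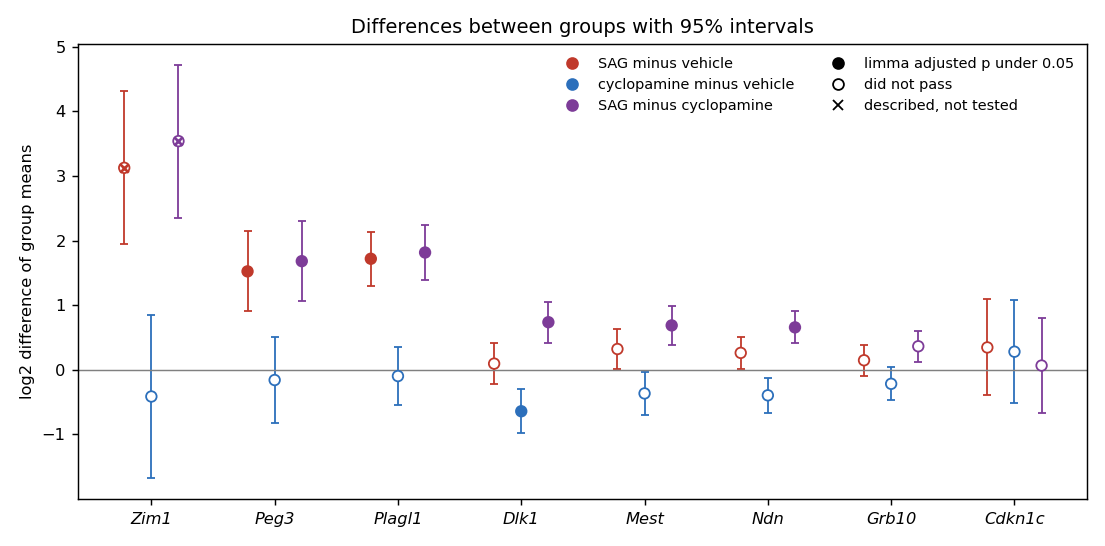
Differences between group means (vertical axis, log2 units) for each measured member, with 95% intervals from the limma fit; colours give the comparison, filled points passed at an adjusted p under 0.05, open points did not, and crossed points are described without a test. Zim1, Peg3 and Plagl1 have SAG minus vehicle differences of 3.13, 1.52 and 1.72. Their cyclopamine minus vehicle differences, -0.41, -0.16 and -0.10, did not pass, and the interval of Zim1 runs from -1.68 to 0.85. For Dlk1 it is the cyclopamine difference, -0.64, that passed.

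Cyclopamine replicate 2 was the highest of the cyclopamine arrays for 7 of the 8 members, Ndn being the exception, and for 36.3% of all probe sets. Vehicle replicate 2 was the lowest vehicle array for 6 members, all but Cdkn1c and Grb10, and for 34.02% of all probe sets, and SAG replicate 3 was the highest SAG array for 6 members, all but Grb10 and Ndn, and for 20.4%. Members on an array share its tissue. Cyclopamine replicate 2, which stood apart on the second principal component, had the lowest mean of duct epithelium markers (11.83) and the highest of mesenchyme markers (12.48) in its group. Vehicle replicate 2 had the highest mean of both lists in its group (duct epithelium 11.69, mesenchyme 13.10). SAG replicate 3 was neither highest nor lowest in its group for these lists (duct epithelium 9.82, mesenchyme 13.60). The part of these differences in the members' values was not tested. In Zim1 the spread within a group was widest, with ranges of 1.21 log2 units among SAG arrays, 2.27 among cyclopamine arrays and 1.57 among vehicle arrays. In Grb10 those ranges were 0.11, 0.13 and 0.12.

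Among the neighbours of Zim1 and Peg3, Usp29, a ubiquitin protease gene read from the paternal chromosome, was measured. Its signal was 10.21, 10.45, 10.82 and 10.54 with SAG, 8.05, 9.08 and 7.84 with cyclopamine, and 9.39, 8.90 and 8.68 with vehicle. All SAG arrays lay above the rest, and cyclopamine and vehicle overlapped. Usp29 rose with SAG by 1.52 ± 0.29 against vehicle (limma, adjusted p = 0.044) and by 2.18 ± 0.29 against cyclopamine (adjusted p = 0.00070). Its mean was 8.32 with cyclopamine and 8.99 with vehicle, a difference that did not pass with all arrays. Without cyclopamine replicate 2 that difference was -1.04 and passed (limma, adjusted p = 0.027). The call of Usp29 with SAG against vehicle ended when any 1 of the SAG or vehicle arrays or cyclopamine replicate 1 was left out (adjusted p up to 0.21). The symbols Zfp264, Zim2 and Zim3 of the same region had no probe set in the annotation table used here.

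Usp29 and Klf14 were the 2 of 52 other measured imprinted genes that rose with SAG against vehicle (3.85%, where 0.45% of all probe sets rose). Of the 52, 0 fell, where 0.279% of all probe sets fell. At an unadjusted p under 0.05, where the share of all probe sets was not counted, limma gave 2 above 0 and 4 below. The list of other imprinted genes held 65, of which 13 had no probe set of their symbol. Its median difference was 0.01, equal to that of all probe sets. Klf14, a Krüppel-like factor gene read from the maternal chromosome, lies on chromosome 6 near Mest, with Copg2 and Tsga13 between them. Its signal was 8.10, 7.74, 8.74 and 7.49 with SAG, 6.02, 6.31 and 6.06 with cyclopamine, and 6.62, 6.24 and 6.53 with vehicle, so that again all SAG arrays were above the others. The rise of Klf14 was 1.55 ± 0.26 against vehicle (limma, adjusted p = 0.023) and 1.89 ± 0.26 against cyclopamine (adjusted p = 0.00082). Against vehicle it did not pass without SAG replicate 1 or when any 1 of the vehicle arrays was left out (adjusted p up to 0.14). Copg2, which lies between Mest and Klf14, moved by -0.22 ± 0.25 with SAG against vehicle (adjusted p = 0.81).

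**Figure D3:**
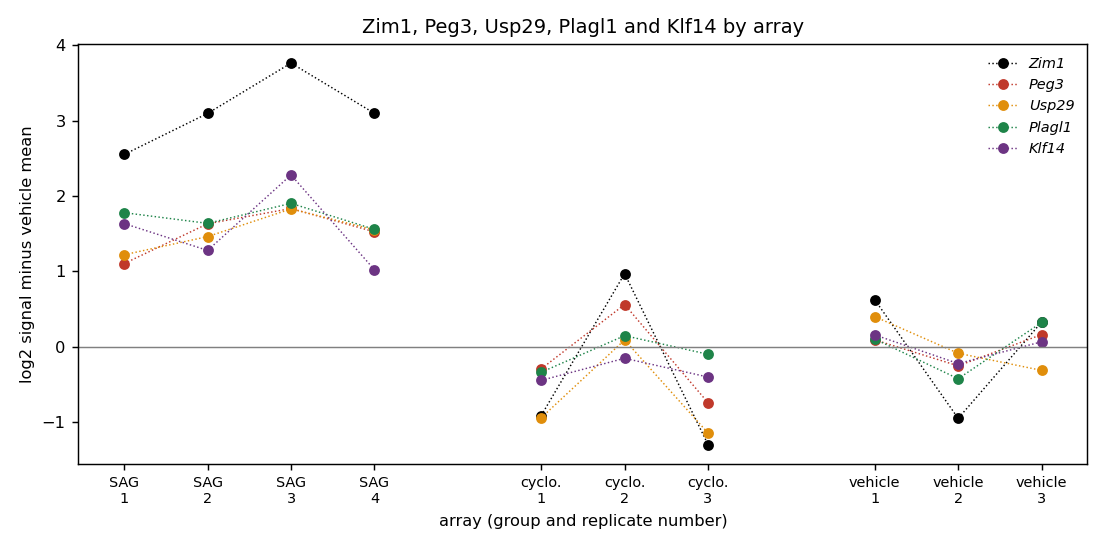
Log2 signal minus the mean of the vehicle arrays (vertical axis) for Zim1, Peg3, Usp29, Plagl1 and Klf14 on each of the 10 arrays (horizontal axis, by group and replicate number); dotted lines join arrays of a group to guide the eye and carry no order. All 5 genes lie at least 1 log2 unit above the vehicle mean on every SAG array, with Zim1 the farthest above; on the cyclopamine arrays Klf14 lies below the vehicle mean on all 3, and the other 4 genes lie above it on replicate 2 and below it on replicates 1 and 3.

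Likeness of pattern was measured as the root mean square difference between the values of 2 genes over the 10 arrays, each centred on its own mean, with a small value meaning close agreement in size as well as shape. The arrays share their treatment, so these values describe the data and carry no test. Nearest to Zim1 were Meox2, a mesodermal homeobox gene (0.722 log2 units), Sostdc1, which encodes a secreted inhibitor of BMP and Wnt ligands (0.729), and Pcsk5, a proprotein convertase (0.748); Meox2 is also one of the mesenchyme markers counted below. Of the imprinted genes, ranks were taken for the measured members and for Usp29 and Klf14, which were added because they rose with SAG against vehicle. The remaining imprinted genes were not ranked against Zim1. Among those ranked, Usp29 came 9 of 19504 other genes in likeness to Zim1, Peg3 26, Plagl1 33 and Klf14 45. Dlk1, Mest and Ndn ranked 918, 689 and 1120, and Grb10 and Cdkn1c 2318 and 2428. Read from the other side, Zim1 ranked 1534 in likeness to Usp29, 12989 to Peg3, 12848 to Plagl1 and 13785 to Klf14. The ranks rest in part on the SAG difference by which Zim1 was chosen.

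Peg3 was nearest to Aspn, the gene of the matrix proteoglycan asporin (0.167 log2 units), then to the kinase gene Nuak1 (0.265) and the lectin receptor gene Cd302 (0.300), with Usp29 in rank 4 (0.309) and Plagl1 in rank 5 (0.317). For Plagl1 the order was Aspn (0.253), Klf14 (0.263) and Tiam1, an activator of the GTPase Rac (0.279), and for Klf14 Plagl1 itself came first. Dlk1 was nearest to Nkap, Phf1 and Elk1 (0.118 to 0.124), Mest to Orai3, Capn10 and Pofut2 (0.107 to 0.123) and Ndn to Zmynd11, Appl1 and Rbms3 (0.0752 to 0.0881). Mest and Ndn lay 0.142 apart and Dlk1 and Ndn 0.167. Grb10 was nearest to Elf2, to the imprinted gene Gnas, which encodes a G protein subunit, and to Lrch3 (0.0353 to 0.0687), and Cdkn1c to Ugcg, Aacs and Npepps (0.189 to 0.212). Genes that vary little lie close to many others on this measure.

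Among the 52 other imprinted genes, Dio3, Atp10a and Sgce fell with cyclopamine against vehicle (5.77%, where 2.95% of all probe sets fell) and Kcnq1 rose (1.92%, where 2.17% rose). Dio3, the enzyme that inactivates thyroid hormone, lies in the same imprinted region as Dlk1. Its signal averaged 6.24 ± 0.21 with cyclopamine and 8.03 ± 0.25 with vehicle (SD, n = 3 each), and the groups did not overlap. The fall of Dio3 was 1.79 ± 0.19 log2 units (limma, adjusted p = 0.00084) and was kept with each array left out. Dio3 was also lower with SAG than with vehicle (a difference of -0.79 ± 0.18) with no overlap of the arrays, but did not pass (adjusted p = 0.090). Atp10a, a phospholipid flippase gene, fell by 1.91 ± 0.36 (adjusted p = 0.014), a call that ended without vehicle replicate 1 or 2 (adjusted p up to 0.063). Sgce, a sarcoglycan gene, fell by 0.48 ± 0.12 (adjusted p = 0.048), and this call ended with the omission of any array (adjusted p from 0.050 to 0.14).

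Kcnq1, a potassium channel gene in the same region as Cdkn1c, gave 9.05, 8.21 and 9.46 with cyclopamine and 7.49, 7.99 and 7.46 with vehicle. It rose by 1.26 ± 0.31 (limma, adjusted p = 0.042); the call was kept only without SAG replicate 1 or cyclopamine replicate 2 and ended without any other single array (adjusted p up to 0.14). Its neighbours Phlda2, a growth-restraining gene of the placenta, and Slc22a18, a transporter gene, were 1.07 ± 0.30 (adjusted p = 0.073) and 1.21 ± 0.31 (adjusted p = 0.053) with cyclopamine minus vehicle; Phlda2 passed with the replicate number as a block (adjusted p = 0.034), and Slc22a18 passed without cyclopamine replicate 2 (adjusted p = 0.022). The antisense RNA Kcnq1ot1 of the same region gave 0.03 ± 0.24 (adjusted p = 0.97). Over the 52 genes the median difference was -0.06, against 0.02 over all probe sets.

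With SAG against cyclopamine, 8 of the 52 other imprinted genes rose (15.4%, where 5.42% of all probe sets rose) and 4 fell (7.69%, where 5.92% fell), with a median of 0.07 against 0.01 over all probe sets. Beside Usp29 and Klf14, those that rose were Nnat, a membrane proteolipid gene (2.17 ± 0.44), Atp10a (1.43 ± 0.34), Dio3 (1.00 ± 0.18, with both groups below vehicle), Peg12, the gene of a GSK-binding protein (0.89 ± 0.17), Sgce (0.46 ± 0.11) and Gnas (0.41 ± 0.11). Those that fell were Kcnq1 (-2.03 ± 0.29), Cobl, an actin nucleator gene near Grb10 (-1.24 ± 0.18), Slc38a4, an amino acid transporter gene (-0.92 ± 0.26), and Ppp1r9a, which encodes the actin-binding protein neurabin (-0.72 ± 0.18). The calls of Sgce, Gnas, Slc38a4 and Ppp1r9a ended with several arrays left out and that of Atp10a without SAG replicate 4 (adjusted p = 0.052). The ending arrays were SAG replicates 1, 3 and 4 and cyclopamine replicates 1 and 2 for Sgce, SAG replicates 2, 3 and 4 and cyclopamine replicates 1 and 3 for Ppp1r9a, and all but SAG replicate 1 and cyclopamine replicate 2 for Gnas, with adjusted p of up to 0.089, 0.10 and 0.13. For Slc38a4 they were all but SAG replicate 2 and cyclopamine replicate 1 (adjusted p up to 0.10).

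Several genes beside the members showed no call in any comparison. Igf2, the fetal growth factor gene whose neighbour H19 was not analysed here, differed by 0.20 ± 0.17 with SAG (limma, adjusted p = 0.73) and by 0.04 ± 0.18 with cyclopamine (adjusted p = 0.93), each against vehicle. Magel2 and Mkrn3, which lie beside Ndn, differed by 0.20 ± 0.14 and -0.18 ± 0.15 with SAG against vehicle (adjusted p = 0.66 and 0.73). Ddc, beside Grb10, differed by -0.26 ± 0.38 (adjusted p = 0.86). Rian, Mirg and Rtl1 near Dlk1, and Snrpn near Ndn, had no probe set of their symbol in the annotation table used here.

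**Figure D4:**
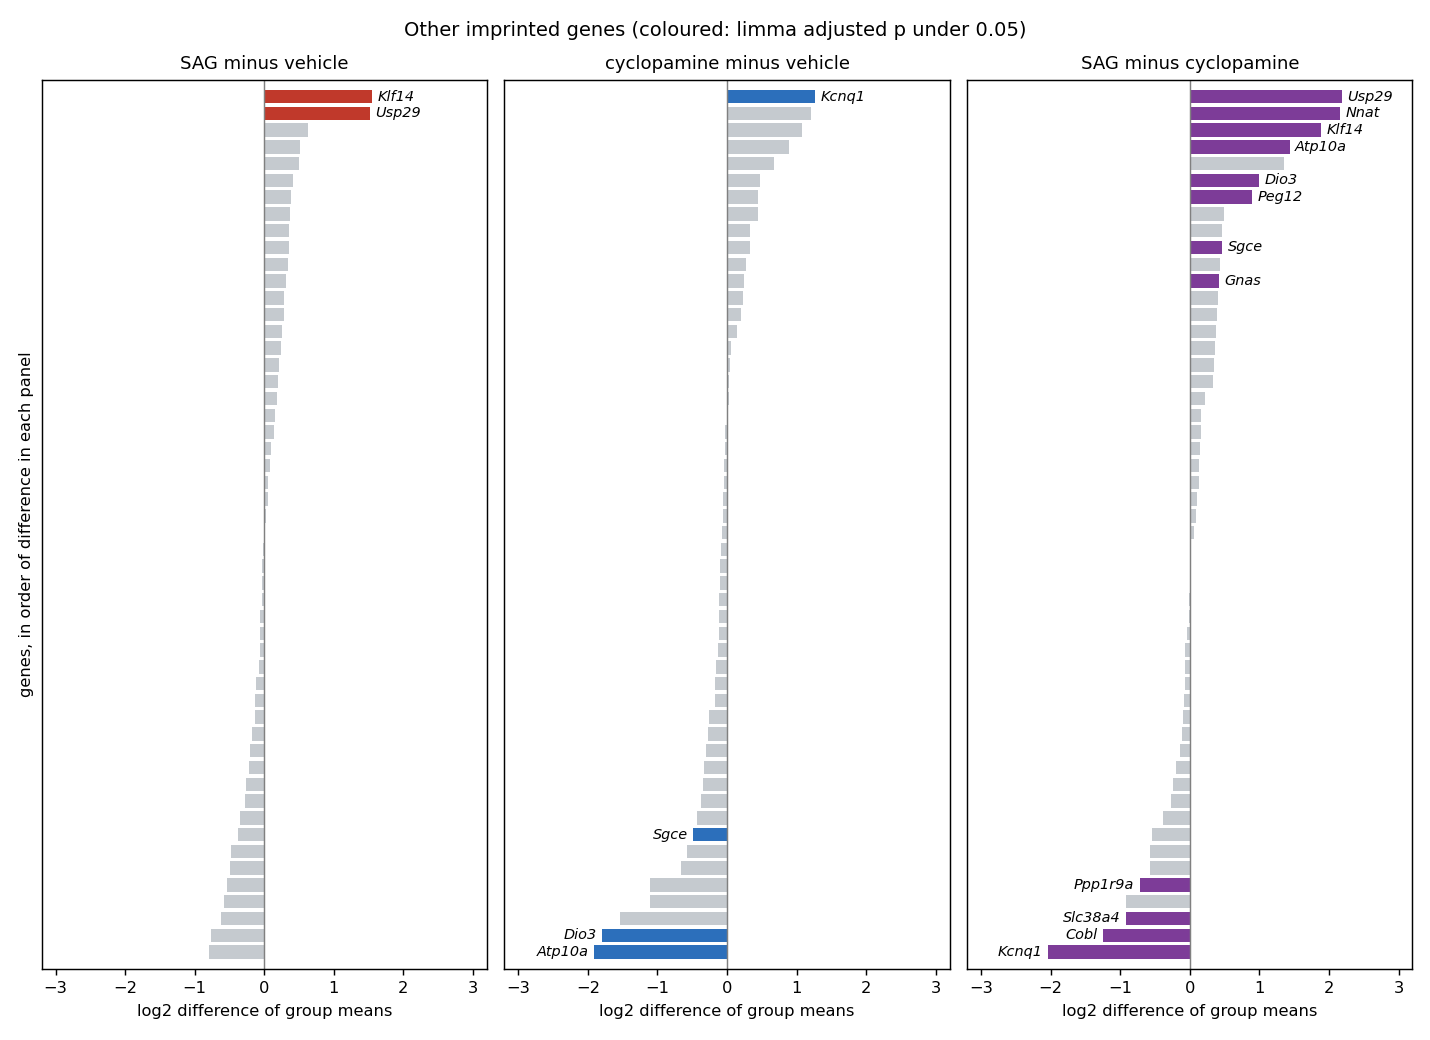
Differences between group means (horizontal axis, log2 units) for the 52 other measured imprinted genes, sorted within each comparison; coloured and named bars passed at a limma adjusted p under 0.05. Of these genes 2 rose with SAG against vehicle, 1 rose and 3 fell with cyclopamine against vehicle, and 8 rose and 4 fell with SAG against cyclopamine.

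The explants hold several tissues, and marker lists of some of those tissues also differed between the groups. In RNA from a whole explant, fewer cells of a type and less RNA per cell cannot be told apart. Mean log2 signal of 12 mesenchyme markers lay between 13.41 and 13.70 on SAG arrays, between 12.19 and 12.48 on cyclopamine arrays and between 13.06 and 13.10 on vehicle arrays. With SAG against vehicle, 1 of these markers rose (Meox2, 3.34 ± 0.49, limma adjusted p = 0.014) and 0 fell, where 0.45% of all probe sets rose. Meox2 had the largest difference of the list. The median was 0.25, with 8 markers above 0 and 4 below (Pdgfrb, Dcn, Lum and Meox1). Of the 12, Meox1 alone had a mean signal below the lower quartile of all probe sets. With cyclopamine against vehicle 5 fell, where 2.95% of all probe sets fell. With SAG against cyclopamine 9 rose, where 5.42% of all probe sets rose. The mean of 13 duct epithelium markers lay between 9.73 and 10.27 with SAG, 11.83 and 12.53 with cyclopamine and 10.74 and 11.69 with vehicle. With SAG against vehicle 2 of them fell (Cldn7 and Esrp1) and 0 rose, where 0.279% of all probe sets fell. With cyclopamine against vehicle 6 rose and 0 fell, where 2.17% of all probe sets rose. Ret and Lhx1 were the 2 with lower means with cyclopamine than with vehicle (6.71 against 8.26 and 6.21 against 7.11). All 13 duct epithelium markers, Pax2, Pax8, Cdh1 and Epcam among them, had mean signals above the lower quartile of all probe sets. So did all measured markers of smooth muscle, endothelium, macrophages and neurons and glia, so this limit does not tell the tissues apart.

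Smooth muscle markers (9 genes) averaged 11.75 to 11.97 with SAG, 9.52 to 9.95 with cyclopamine and 12.15 to 12.63 with vehicle. With cyclopamine against vehicle 7 of them fell, where 2.95% of all probe sets fell. Endothelial markers (7 genes) averaged 9.98 to 10.36 with SAG, 8.03 to 9.69 with cyclopamine and 9.37 to 10.41 with vehicle, and macrophage markers (6 genes) 9.45 to 10.07, 9.16 to 10.51 and 9.50 to 9.81 in the same order of groups. Markers of neurons and glia (4 genes) averaged 6.98 to 8.92 with SAG, 7.68 to 9.43 with cyclopamine and 8.37 to 9.68 with vehicle, with none passing in any comparison. Of 7 markers of kidney, gonad and adrenal, 5 had mean signals below the lower quartile of all probe sets, Umod, Amh, Star, Cyp17a1 and Cyp11b1. Nphs1 averaged 10.62 with SAG, 10.69 with cyclopamine and 10.63 with vehicle. For Cyp17a1 the mean hides a spread from 3.55 to 8.03 within the SAG group. SAG replicate 1 had the highest mean of this list, 6.22, and SAG replicate 4 followed within its group at 5.49. Whether that array carried tissue from beside the duct was not tested. The part of the shifts in all these marker lists in the differences of Zim1, Peg3, Plagl1, Dlk1, Mest and Ndn was not tested.

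**Figure D5:**
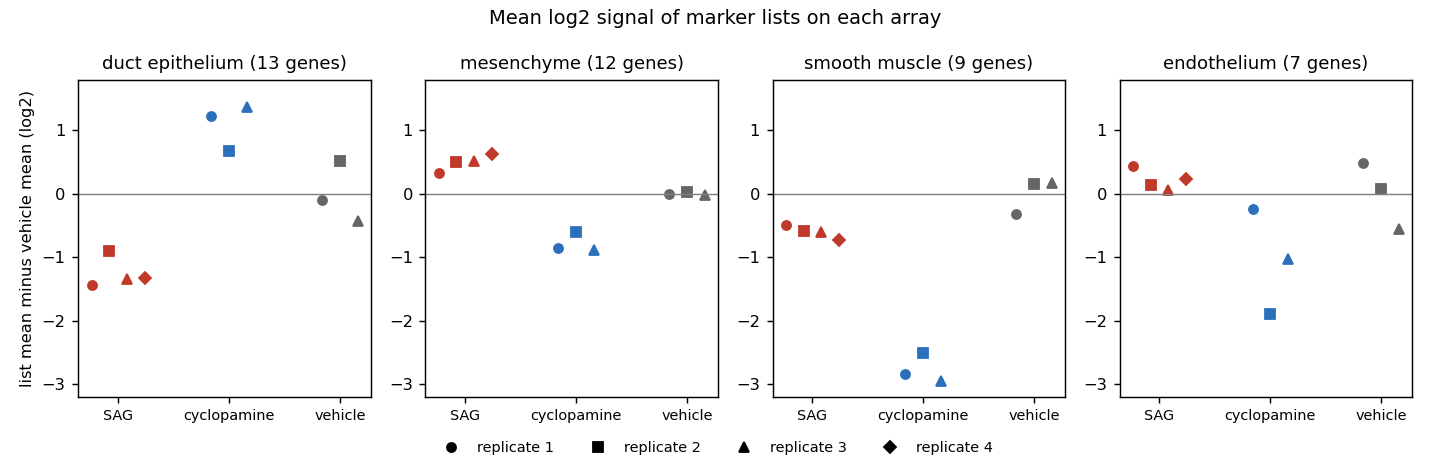
Mean log2 signal of 4 marker lists on each array minus the mean of the vehicle arrays (vertical axis), by group, with symbols for the replicate number. On every SAG array the mesenchyme mean is above and the duct epithelium mean below that of every vehicle array, and on every cyclopamine array mesenchyme and smooth muscle are below and duct epithelium is above. Single markers differ from their list mean: with SAG against vehicle 4 of the 12 mesenchyme markers lay below 0, the dim Meox1 among them.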

How the data were processed

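Total RNA from cultured Wolffian ducts was labelled with biotin and hybridised to Affymetrix arrays, per the labels' protocols (RNA integrity number of at least 7, 100 ng per sample). The deposited table gives a log2 signal for 22206 probe sets on 10 arrays; the base was read from their range, 2.95 to 18.75. The quartiles of the arrays were nearly equal, as after normalization between arrays, while the summarization and normalization methods, software and genome build were not given in the sources used here. Summarized signals compress differences near the lower end of the range, and precision is limited by how few arrays there are.

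Groups came from the treatment labels. A mean per group was fitted to all probe sets and arrays with limma 3.58.1 in R 4.3.3 (lmFit and eBayes, 7 residual and 3.70 prior degrees of freedom), two-sided, and p-values were adjusted over the whole array by the Benjamini-Hochberg method, with 0.05 as the threshold. No filter was applied. Errors of differences are moderated standard errors. A platform annotation table named 19572 probe sets with 1 gene symbol, 0 with several and left 2634 without; a gene with several probe sets was taken at its highest mean signal. RefSeq tables of GRCm38.p6 gave promoter windows and gene order, matched by symbol, for 7 of the 8 measured members.

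The genes named were all members, up to 8 other imprinted genes that passed in each direction and comparison, the members' neighbours in their imprinted regions, the 3 genes most alike in pattern to each member, and Gli1, Ptch1 and Hhip. The members and all lists were chosen with earlier results of these data known. Alternatives were a further quantile normalization, median centring, the replicate number as a block, a prior variance that depends on intensity, fits without the other group, averages over the probe sets of a gene, omission of the dimmest 25% of probe sets and omission of each array in turn.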

Additional observations from a re-analysis of the deposited data

How the results depend on the processing

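The number of probe sets that passed with SAG against vehicle was 162, with 296 when only the groups compared were fitted, 32 with a replicate block and 45 (without vehicle replicate 2) to 339 (without cyclopamine replicate 2) with 1 array left out; it also lay under 162 by over 1.5 times without SAG replicate 2, 3 or 4 or vehicle replicate 1 or 3. The counts with cyclopamine against vehicle were 1136, 566, 653 and 485 to 1471 in the same order, lowest without vehicle replicate 1, and with SAG against cyclopamine 2518, 1613 with the block and 1843 to 2855 with 1 array left out. The 2 members that rose with SAG against vehicle became 1 with the replicate block, where Peg3 no longer passed (adjusted p = 0.19), and 1 to 2 with 1 array left out; the 2 other imprinted genes that rose became 0 and 0 to 2. The 1 member that fell with cyclopamine, Dlk1, became 0 with arrays centred on the median, quantile normalized again, fitted only in the groups compared or with the block (adjusted p up to 0.098), 2 with the intensity-dependent prior and 0 to 1 with 1 array left out. Of the other imprinted genes, the 1 that rose with cyclopamine became 2 with centring, quantile normalization or without the dimmest probe sets, 0 with only the groups compared and 0 to 3 with 1 array left out, and it stayed 1 with the block through an exchange, Kcnq1 losing its call (adjusted p = 0.11) and Phlda2 gaining one (adjusted p = 0.034); the 3 that fell became 1 to 4. With SAG against cyclopamine the 5 members that rose stayed 5 with any array left out, the 8 other imprinted genes that rose became 5 with the block and 5 to 9, and the 4 that fell became 2 with only the groups compared, 2 with the block and 2 to 5. The cause of these shifts was not tested, beyond the fewer arrays that some of these fits hold.

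Some differences changed sign. With SAG against vehicle, Sgce became 0.0666 with centring and 0.0066 with quantile normalization and Slc38a4 became 0.0567 with centring, and with 1 array left out Dlk1 ran from -0.0012 to 0.17, Sgce from -0.0512 to 0.0028 and Slc38a4 from -0.18 to 0.0463. With cyclopamine against vehicle the ranges were -1.10 to 0.0287 for Zim1, -0.52 to 0.13 for Peg3, -0.31 to 0.0643 for Plagl1, -0.23 to 0.58 for Cdkn1c, -0.13 to 0.17 for Igf2, -0.11 to 0.23 for Kcnq1ot1 and -0.69 to 0.16 for Ddc. With SAG against cyclopamine they were -0.23 to 0.58 for Cdkn1c, -0.0123 to 0.16 for Mkrn3, -0.0315 to 0.30 for Kcnq1ot1 and -0.42 to 0.43 for Ddc. None of these passed the test with all arrays and the settings of the report. Grb10 passed with SAG against cyclopamine with centring, the intensity-dependent prior or without the dimmest probe sets (adjusted p down to 0.0062).

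The groups share the replicate numbers 1 to 3, but deviations from the group means correlated between -0.19 and 0.22 for arrays of the same number, so the numbers were not taken to pair the arrays. The arrays hold 3 or 4 cultures a group, the solvent in the vehicle cultures is not given, and the signal of each gene comes from 1 probe set that cannot tell parental copies apart.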
